A study of Rattus norvegicus with 9 samples.

Results

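In primary cardiomyocytes from newborn rats, 108 protein-coding genes had levels that followed the Yap1 vector in both directions: highest in every library with added Yap1, lower in every control library and lowest in every library with a hairpin against Yap1. They were selected among 18629 genes in the deposited table, on TPM (transcripts scaled to a fixed total, a level per transcript length). A gene was taken where its mean TPM over 9 libraries was at least 1, where no library of one group reached into the next group, and where the mean TPM changed at least 1.2-fold in each step. Yap1 itself was left out. Of the 12662 genes with a mean TPM of at least 1, 281 kept the order and 108 of these also had both steps of 1.2-fold. The same TPM values chose the genes, so the order of the groups is how they were picked and is no finding.

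The donor animals were newborn Sprague-Dawley rats, 1 to 2 days old, and the heart cells were plated for 18 to 20 h in medium with 10% serum. All 3 groups share what followed: 14 h with less serum (1%) and glucose at 1 g/L, then 48 h with glucose at 33 mM and insulin at 100 nM, meant as a model of the heart in diabetes. Adenovirus carried green fluorescent protein (Ad-GFP, 3 libraries, the control), Yap1 (Ad-Yap1 WT, 3 libraries) or a short hairpin RNA against Yap1 (Ad-Yap1 shRNA, 3 libraries). Below, these are called GFP, Yap1 WT and shRNA libraries. No group carried a control hairpin, and the labels do not give the source species of the Yap1 cDNA, the virus doses or whether the replicates are separate isolations, so the p-values behind every call measure only the spread between these samples. Libraries held 14868180 to 15368473 assigned reads with GFP, 10960051 to 11497104 with Yap1 WT and 6103221 to 6357403 with the shRNA. Cardiomyocyte markers were present in every library, but their summed TPM (10 genes) was 34335 to 36016 with GFP, 10046 to 14870 with Yap1 WT and 2347 to 2917 with the shRNA.

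YAP1 is a transcriptional coactivator, held back by the Hippo pathway. When the Hippo kinases MST and LATS are inactive, YAP1 enters the nucleus and acts mainly through TEAD factors, which bind DNA themselves, while YAP1 does not. In the heart it is known for cardiomyocyte growth before birth and, in fibroblasts, for genes of the extracellular matrix.

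Yap1 followed its vectors, with 55.9, 54 and 52.5 TPM in the GFP libraries, 335, 533 and 376 with Yap1 WT and 32, 31.7 and 30.3 with the shRNA. The Yap1 WT libraries were uneven, and the 3 groups did not overlap. On the log2 scale of mean TPM Yap1 stood at 2.94 with Yap1 WT and -0.79 with the shRNA. On this TPM scale none of the 108 genes had as large a rise, and 36 had a deeper fall. The log2 ratio of mean TPM of the 108 had a median of 0.47 for Yap1 WT over GFP and -0.59 for shRNA over GFP, and the smaller of the steps reached 1.5-fold in 21 genes and 2-fold in 3. The smaller step was the one with Yap1 WT in 71 genes and the one with the shRNA in 37. Levels ranged widely: 42 genes had a mean of under 5 TPM, 48 lay from 5 to under 30 TPM and 18 at 30 TPM or more. Their median was 7.72 TPM, against 16.2 for all genes with at least 1 TPM. Across those genes the usual pattern was another one. Both Yap1 groups lay on the same side of GFP in mean TPM for 83.9% of the 12610 genes with a mean above 0 in each group, and 10.3% were higher with Yap1 WT and lower with the shRNA.

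**Figure D1:**
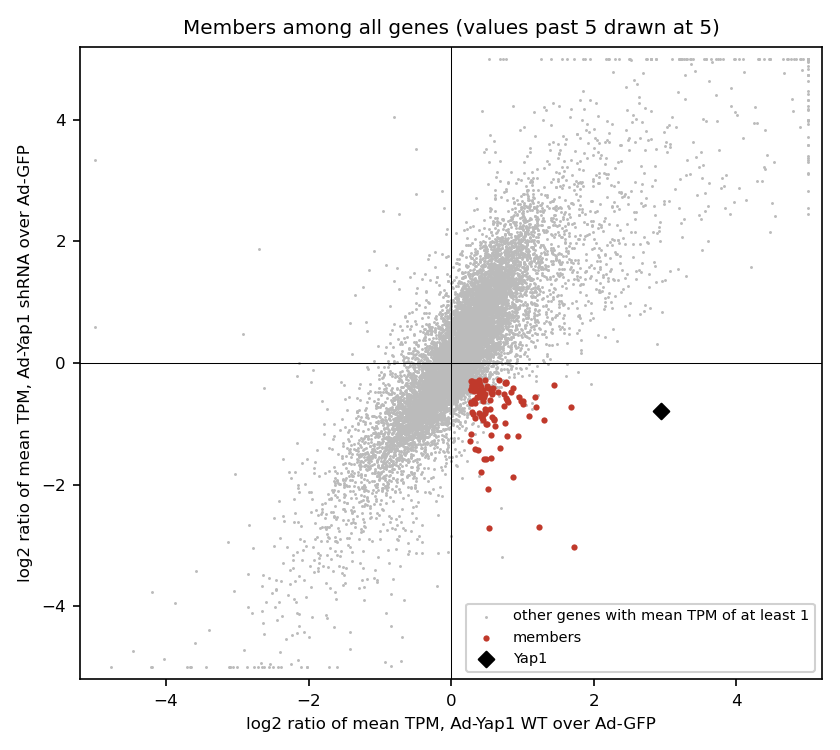
Each point is a gene with a mean TPM of at least 1, placed by its log2 ratio of mean TPM for Ad-Yap1 WT over Ad-GFP (horizontal) and for Ad-Yap1 shRNA over Ad-GFP (vertical). The selected genes (red, 107 of 108, without Gng13, which is listed at 0 TPM with the shRNA) sit below and to the right of the main diagonal cloud, close to the origin, and Yap1 (black) lies at 2.94 and -0.79.

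Which genes were selected depended on the scale. For the median gene, the log2 step on TPM exceeded the step on counts after TMM scaling (read counts per fixed library total, CPM, after edgeR's trimmed mean of M-values) by 0.16 with Yap1 WT and 0.21 with the shRNA. A TPM step up is thus larger than the same step on counts, and a TPM step down is smaller. On TMM-scaled CPM the same selection gave 98 genes, of which 53 were shared (49.1% of the 108 and 54.1% of the 98). With every TPM step divided by its median over all genes it gave 97, of which 59 were shared. Library size alone as the scale gave 175 genes, with 92 shared.

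The count fit (edgeR's quasi-likelihood test over all 9 libraries, adjusted over 13708 genes) held 106 of the 108. Of these, 63 were called higher with Yap1 WT at an adjusted p under 0.05, where 32% of all tested genes were called higher. With the shRNA 105 were called lower, where the share of all tested genes was 39.1%. Both calls met in 63, against 1.09% of all tested genes (150). These contrasts selected the genes, so the counts describe how the scales meet and nothing is read from them. Every fitted step kept its sign: 0.10 to 1.58 on the log2 scale with Yap1 WT (median 0.30), and -0.48 to -3.31 with the shRNA (median -0.78). For Yap1 itself the fitted steps were 1.77 (SE 0.11) and -1.03 (SE 0.11). Its rise was thus much smaller on counts than on TPM, and closer to the largest rise among these genes. On CPM, 79 of the 106 in the fit kept all Yap1 WT libraries above all GFP libraries (35.3% of all tested genes). All 106 kept all GFP libraries above all shRNA libraries (40.3%). In the authors' deposited table, 49 were higher with Yap1 WT and 97 lower with the shRNA at a q-value under 0.05, where 21.4% and 26.4% of all genes with a q-value in that table were so called. The genes outside the fit were Gng13, with 5 reads over the GFP libraries, 10 with Yap1 WT and 0 with the shRNA, and Pf4, with 31, 33 and 6. No fold is given for Gng13, since its counts lie near the floor of 3.

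**Figure D2:**
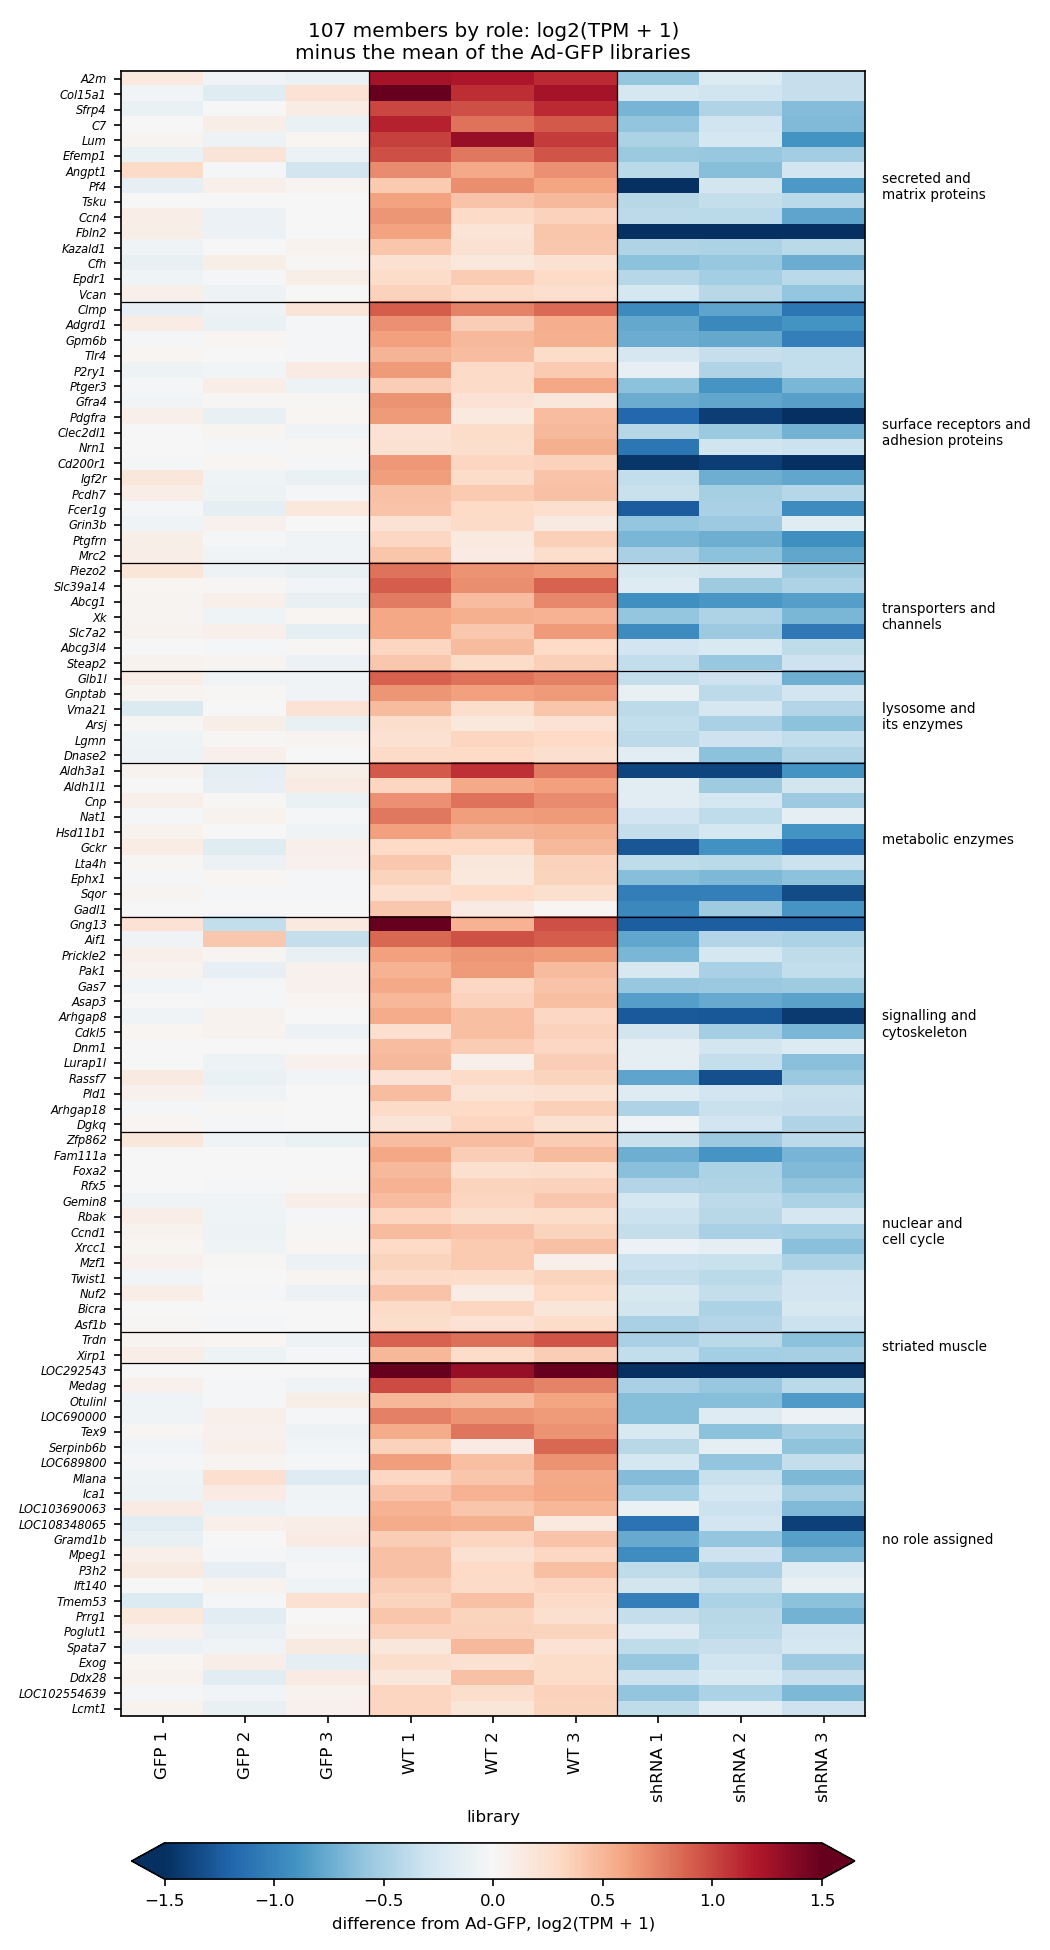
Rows are 107 of the 108 genes, grouped by role and ordered by their step with Yap1 WT within a role, columns are the 9 libraries, and colour gives log2(TPM + 1) minus the mean of the Ad-GFP libraries. Red fills the Ad-Yap1 WT columns and blue the Ad-Yap1 shRNA columns as the selection requires, with the deepest blue in Fbln2, Pdgfra, Cd200r1 and LOC292543.

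The RefSeq promoter table (build GRCr8, 27457 genes) held 76 of the 108 genes, matched by gene identifier. In the 250 bases before the start, the letters GGAATG, the core that TEAD factors bind, stood on either strand in 12 of the 76 (15.8%), against 12.9% of all genes in that table and 10.6% of those with a mean of at least 1 TPM. The AP-1 letters TGANTCA stood in 7 (9.21%), against 6.99% and 4.83%, and the GC box GGGCGG in 37 (48.7%), against 33.5% and 60.8%. Genes with several starts counted as a match if any start had one. The promoters of 5 genes with values below are printed to show what such matches look like. They are the 250 bases before the start, 5′ to 3′ on the gene's own strand, with GGAATG or its reverse complement CATTCC and TGANTCA in capitals. The matches are letters only, and binding was not measured. Strands and positions here are those of GRCr8 and can differ from rn6, as for Pdgfra, which the RefSeq table places on the minus strand and the deposited rn6 coordinates on the plus strand.
Tlr4, chr5:85160997-85161246, plus strand: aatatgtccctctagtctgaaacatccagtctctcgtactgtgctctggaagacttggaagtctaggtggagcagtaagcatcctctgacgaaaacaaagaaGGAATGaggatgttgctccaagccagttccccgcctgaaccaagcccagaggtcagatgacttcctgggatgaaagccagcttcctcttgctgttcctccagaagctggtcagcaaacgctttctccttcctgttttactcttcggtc
Ephx1, chr13:95263118-95263367, minus strand: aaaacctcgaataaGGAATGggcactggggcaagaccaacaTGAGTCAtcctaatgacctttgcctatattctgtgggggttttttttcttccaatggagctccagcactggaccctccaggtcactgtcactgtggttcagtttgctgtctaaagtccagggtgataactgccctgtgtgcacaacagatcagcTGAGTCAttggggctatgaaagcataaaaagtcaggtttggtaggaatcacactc
Sqor, chr3:130299981-130300230, plus strand: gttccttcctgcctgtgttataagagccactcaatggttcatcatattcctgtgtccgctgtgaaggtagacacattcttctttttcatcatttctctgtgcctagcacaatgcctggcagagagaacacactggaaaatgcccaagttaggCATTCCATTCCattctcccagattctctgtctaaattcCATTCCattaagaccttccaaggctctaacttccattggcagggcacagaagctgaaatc
Pdgfra, chr14:33408517-33408766, minus strand: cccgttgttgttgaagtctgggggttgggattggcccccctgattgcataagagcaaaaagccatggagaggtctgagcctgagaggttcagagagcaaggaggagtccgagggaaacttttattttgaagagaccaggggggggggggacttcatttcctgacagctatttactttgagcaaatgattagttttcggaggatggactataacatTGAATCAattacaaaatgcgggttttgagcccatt
Efemp1, chr14:106811614-106811863, plus strand: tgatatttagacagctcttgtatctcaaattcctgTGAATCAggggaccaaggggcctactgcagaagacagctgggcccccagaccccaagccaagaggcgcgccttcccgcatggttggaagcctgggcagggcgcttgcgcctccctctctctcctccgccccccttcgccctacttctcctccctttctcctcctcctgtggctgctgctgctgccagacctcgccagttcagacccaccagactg
In these windows Tlr4 had 1 GGAATG, at -148 from the start. Sqor had 3 copies of CATTCC, at -98, -93 and -60, of which the first pair overlaps. Ephx1 had 1 GGAATG at -236 and TGAGTCA at -209 and -55, upstream of 1 of its starts. Pdgfra and Efemp1 had 1 TGAATCA each, at -35 and -215.

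The genes are described below by role. Roles were assigned after the values were seen and the same contrasts selected the genes, so the counts called within a role are descriptions. Secreted and matrix proteins held several of the larger steps up. Of 15 such genes, 11 were called higher with Yap1 WT and 14 lower with the shRNA, with Pf4 outside the fit. The fixed list of 52 extracellular matrix genes was mixed, with 4 selected. With Yap1 WT 19 of the 52 were called higher and 21 lower (32% and 31.8% of all tested genes). With the shRNA 16 were called higher and 34 lower (39.2% and 39.1%). Lum (lumican, NCBI gene 81682, chromosome 7, 38820058 to 38826862, plus strand, rn6), a small proteoglycan that spaces collagen fibrils, had 16.4, 15.1 and 16.2 TPM in the GFP libraries, 33.2, 40.7 and 33.9 with Yap1 WT and 11.2, 13 and 8.05 with the shRNA. Its Yap1 WT libraries stood clear of GFP, while the gap to the shRNA libraries was narrower than their own range. The fitted log2 steps of Lum were 1.01 (SE 0.11) and -0.78 (SE 0.14). Col15a1 (collagen XV, NCBI gene 298069, chromosome 5, 62840360 to 62950240, plus strand, rn6), a collagen of the basement membrane around muscle fibres and capillaries, had 6.44, 5.77 and 7.89 TPM with GFP, 22.2, 15.5 and 17.1 with Yap1 WT and 5.35, 5.21 and 5 with the shRNA. It was 2.73-fold higher in mean TPM with Yap1 WT and 1.29-fold lower with the shRNA. The lowest GFP library of Col15a1 lay only just above the highest shRNA library.

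Fbln2 (fibulin 2, NCBI gene 282583, chromosome 4, 122835237 to 122895127, plus strand, rn6), a glycoprotein that links elastic fibres to other matrix, had the opposite proportions. It had 159, 141 and 150.4 TPM with GFP, 229, 173 and 201 with Yap1 WT and 45.1, 41.9 and 42.4 with the shRNA. All 3 shRNA libraries of Fbln2 lay far below every GFP library, 3.48-fold lower in mean TPM. Its fitted log2 steps were 0.26 (SE 0.08) and -2.02 (SE 0.09). Vcan (versican), a large proteoglycan of the developing heart, had 50.3, 45.2 and 47.2 TPM with GFP, 60.9, 58.2 and 56.6 with Yap1 WT and 39.4, 35.4 and 31.4 with the shRNA. Vcan was called lower with the shRNA and was not called with Yap1 WT, where its fitted log2 step was 0.15 (SE 0.08). Efemp1 (fibulin 3), another fibulin, had 5.58, 7.05 and 5.62 TPM with GFP, 12.8, 11.2 and 12.6 with Yap1 WT and 3.79, 3.75 and 3.91 with the shRNA, and its fitted steps were close in size at 0.84 (SE 0.12) and -0.88 (SE 0.16).

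A2m (alpha-2-macroglobulin), a secreted trap for proteases, was low in all groups and had the largest step with Yap1 WT in this group. It had 1.63, 1.3 and 1.23 TPM with GFP, 4.64, 4.54 and 4.18 with Yap1 WT and 0.59, 1.06 and 0.88 with the shRNA. Sfrp4, a secreted antagonist of Wnt ligands, stood at 2.497 ± 0.25 TPM with GFP, 6.14 ± 0.401 with Yap1 WT and 1.31 ± 0.21 with the shRNA (SD, n = 3 libraries each). C7, a complement component of the membrane attack complex, stood at 2.99 ± 0.28, 6.79 ± 0.96 and 1.81 ± 0.39 TPM. Angpt1, the ligand of the endothelial receptor TIE2, had mean TPM of 2.89, 5.03 and 1.84. Among the more abundant genes, Tsku, a secreted leucine-rich proteoglycan, stood at 34.7, 49.7 and 26.2 TPM. Ccn4, a matricellular protein of the family that includes the YAP targets Ccn1 and Ccn2, stood at 16.7, 23.1 and 11.4 TPM. Unlike Ccn4, both of those targets were called lower with Yap1 WT and with the shRNA. Their fitted log2 steps were -0.22 and -0.14 for Ccn1 and -0.73 and -0.93 for Ccn2. Epdr1 and Sfrp4 are neighbours on chromosome 17, 3493 bases apart. In the gene annotation the authors deposited, 23 of the 108 genes (21.3%) carried an extracellular compartment, against 7.24% of genes with at least 1 TPM.

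**Figure D3:**
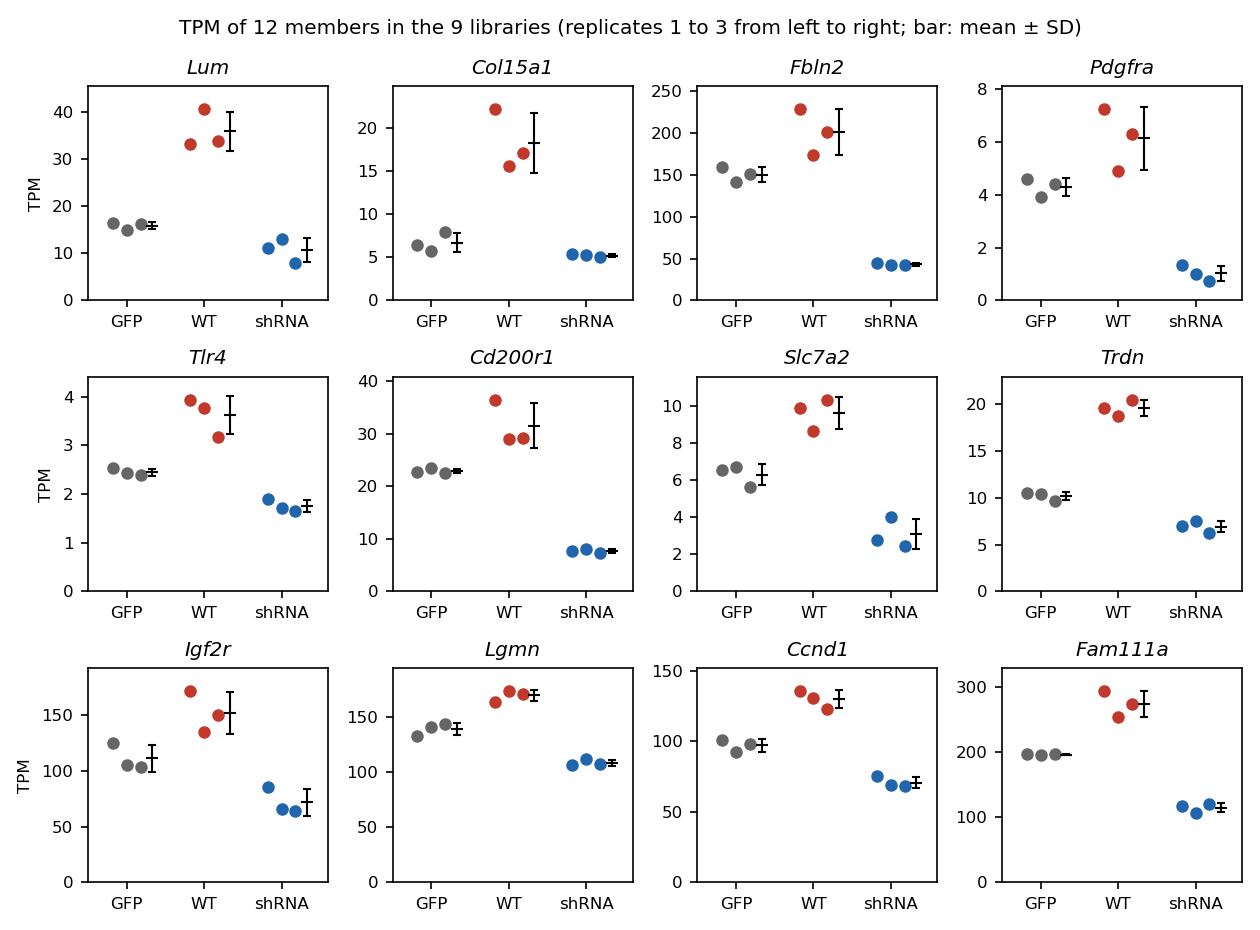
TPM of 12 of the genes in each library (points, replicates 1 to 3 from left to right) with the mean ± SD of 3 libraries beside them, each panel on its own axis from 0. The groups do not touch in any panel, as selected, and on TPM the shRNA libraries lie far below GFP in Fbln2, Pdgfra and Cd200r1, while the Yap1 WT libraries lie far above GFP in Lum, Col15a1 and Trdn.

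Of 17 surface receptors and adhesion proteins, 10 were called higher with Yap1 WT and 17 lower with the shRNA (all tested genes: 32% and 39.1%). Pdgfra (NCBI gene 25267, chromosome 14, 35527926 to 35581130, plus strand, rn6), the receptor for platelet-derived growth factors that marks cardiac fibroblasts, had 4.59, 3.93 and 4.42 TPM with GFP, 7.26, 4.89 and 6.3 with Yap1 WT and 1.34, 0.99 and 0.75 with the shRNA. Its levels were low and uneven with Yap1 WT, and the highest shRNA library lay far below the lowest GFP library. The fitted log2 steps of Pdgfra were 0.36 (SE 0.13) and -2.30 (SE 0.19). Clmp, an adhesion molecule of tight junctions, had the largest smaller step among genes of at least 5 TPM with an approved symbol. It had 5.12, 5.32 and 6.58 TPM with GFP, 11.5, 10.1 and 11 with Yap1 WT and 2.42, 2.84 and 2.14 with the shRNA, a clear gap between every pair of neighbouring groups.

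Igf2r (NCBI gene 25151, chromosome 1, 48176095 to 48264482, plus strand, rn6), which carries lysosomal enzymes and clears IGF2 from the cell surface, was among the 10 most abundant of the 108. It had 124, 106 and 103 TPM with GFP, 171, 135 and 149.6 with Yap1 WT and 85.6, 66 and 64 with the shRNA. The lowest Yap1 WT library lay only a little above the highest GFP library, and the fitted log2 steps of Igf2r were 0.29 (SE 0.10) and -0.84 (SE 0.10). Gpm6b, a membrane proteolipid, had 24.7, 25.3 and 24.7 TPM with GFP, 38.8, 35.3 and 36.6 with Yap1 WT and 14.5, 14.2 and 11.7 with the shRNA, with narrow ranges in each group. Gfra4, a receptor for a ligand of the GDNF family, was low: 1.64, 1.76 and 1.76 TPM with GFP, 3.34, 2.17 and 2.06 with Yap1 WT and 0.62, 0.58 and 0.55 with the shRNA. Only replicate 1 stood well above GFP in the Yap1 WT group, and Gfra4 was not called there. A further 3 receptors, named after their values were seen, had mean TPM in the order GFP, Yap1 WT and shRNA as follows. Ptger3, a receptor for prostaglandin E2, had 2.40, 3.54 and 1.06. P2ry1, a receptor for ADP, had 2.97, 4.39 and 2.197. Mrc2, which takes up collagen fragments, had 31.8, 38.5 and 20.3 and was not called with Yap1 WT.

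Several of the genes are known from myeloid cells. Tlr4 (NCBI gene 29260, chromosome 5, 82587424 to 82601056, plus strand, rn6), the receptor for bacterial lipopolysaccharide, had 2.53, 2.43 and 2.39 TPM with GFP, 3.93, 3.77 and 3.18 with Yap1 WT and 1.89, 1.71 and 1.66 with the shRNA. It was the only one of 25 inflammation and chemokine genes in the table that was selected, where 108 of 12662 genes with at least 1 TPM were. All 25 were called higher with Yap1 WT, and 22 were called higher and 2 lower with the shRNA. Of all tested genes, 32% were called higher with Yap1 WT, and 39.2% higher and 39.1% lower with the shRNA. Fcer1g, the signalling chain of Fc receptors, had 30.8, 28.4 and 35 TPM with GFP, 42.4, 38.7 and 37.5 with Yap1 WT and 12.6, 22 and 15.7 with the shRNA, with wide spread with the shRNA, and was not called with Yap1 WT (fitted log2 step 0.16 (SE 0.15)). Cd200r1, an inhibitory receptor of myeloid cells, named after its values were seen, had 22.7, 23.4 and 22.6 TPM with GFP, 36.5, 29 and 29.3 with Yap1 WT and 7.71, 8 and 7.36 with the shRNA. All its shRNA libraries lay far below GFP, 2.98-fold lower in mean TPM. Pf4 (platelet factor 4), a chemokine of platelets and macrophages, had 11.1, 12.9 and 12.5 TPM with GFP, 16.3, 20.4 and 18.9 with Yap1 WT and 3.25, 9.92 and 6.25 with the shRNA, on few reads. Aif1, an actin-binding protein of macrophages, and Mpeg1, their pore-forming protein, were also selected, at mean TPM of 2.84, 6.04 and 1.55 and of 3.31, 4.41 and 1.81 in the same order. Aif1 was called in both steps, on few reads. They were 12, 20 and 10 with GFP, 20, 21 and 21 with Yap1 WT, and 2, 3 and 3 with the shRNA. By the authors' own q-values Aif1 was called in neither step. Mpeg1 was not called with Yap1 WT.

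Markers of the other cell types in such cultures also changed, in several directions, and only the macrophage sum followed the order of the selected genes. Of 10 fibroblast markers, Lum and Pdgfra were selected. The list as a whole had 3 members higher and 6 lower with Yap1 WT, and 1 higher and 9 lower with the shRNA. Of all tested genes, 32% were higher and 31.8% lower with Yap1 WT, and 39.2% higher and 39.1% lower with the shRNA. The summed TPM of the fibroblast list was 4593 to 5053 with GFP, 3488 to 4702 with Yap1 WT and 2223 to 2467 with the shRNA. Of 10 macrophage markers, 9 were in the table, 7 were abundant enough to test and Fcer1g was selected. The summed TPM of the 9 was 58.5 to 63.7, 77.1 to 79.2 and 34.2 to 49.7, in the order of the selected genes and without overlap. Fcer1g, itself selected for this order, made up a large part of the sum, at mean TPM of 31.4, 39.6 and 16.8. The order of the sum is therefore partly built in. With Yap1 WT 2 were higher and 1 lower, and with the shRNA 1 was higher and 3 lower. None of the 7 was called both higher with Yap1 WT and lower with the shRNA. The smooth muscle and pericyte sum was 9712 to 10120, 4651 to 6337 and 4411 to 4747 TPM, and the endothelial sum 27.9 to 30.9, 34.1 to 37.7 and 50.4 to 56.3. Epicardial markers summed to 54.3 to 54.9, 50.4 to 52.7 and 41.6 to 45.8, neural and glial markers to 30.9 to 31.6, 45.6 to 54.8 and 131 to 142, and erythroid and lymphocyte markers to at most 3.83 and 0.55 TPM in any library. No marker in the table was at 0 in all 9 libraries. In bulk RNA, fewer cells of a type and less RNA per cell cannot be told apart. The part of these cell types in the result was not tested.

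Of 7 transporters and channels, each was called in both steps, as were 63 of the 106 genes in the fit and 1.09% of all tested genes. Slc7a2 (NCBI gene 64554, chromosome 16, 54459409 to 54543990, plus strand, rn6), a transporter of arginine and lysine, had 6.59, 6.7 and 5.67 TPM with GFP, 9.92, 8.67 and 10.4 with Yap1 WT and 2.8, 4.01 and 2.46 with the shRNA. Of 19 listed amino acid transporters only Slc7a2 was selected, where 108 of 12662 genes with at least 1 TPM were. LOC292543, annotated as similar to the related transporter Slc7a3 and named after its values were seen, had the largest smaller step of all 108, with 4.52, 4.48 and 4.5 TPM with GFP, 17.1, 12.6 and 14.7 with Yap1 WT and 0.68, 0.5 and 0.47 with the shRNA. Its GFP libraries were nearly equal and the others more spread, and the shRNA values rest on 7, 4 and 5 reads. Reads may be divided between Slc7a2, Slc7a3 and this provisional gene in ways the deposited counts do not show. Slc39a14, an importer of zinc and iron, stood at 22.8, 41.4 and 17.2 TPM with GFP, Yap1 WT and the shRNA. Abcg1, which exports cholesterol to lipoproteins, stood at 4.17, 7.16 and 1.82. Piezo2, a stretch-gated ion channel, stood at 1.61, 3.24 and 1.04.

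The lysosomal genes had small, even steps. All 7 were called lower with the shRNA and 3 higher with Yap1 WT (all tested genes: 39.1% and 32%). Lgmn, the protease legumain, was the second most abundant of the 108 genes, with 134, 141 and 144 TPM with GFP, 164, 174 and 172 with Yap1 WT and 106, 112 and 108 with the shRNA. Its fitted step with Yap1 WT was 0.12 (SE 0.06) and was not called. Gnptab, which builds the mannose 6-phosphate tag that Igf2r recognises, had 19.1, 18.9 and 17.8 TPM with GFP, 30.01, 29.1 and 29.5 with Yap1 WT and 17.1, 13.9 and 15 with the shRNA. Its fitted steps were near equal, at 0.51 (SE 0.06) and -0.48 (SE 0.06). Glb1l, a relative of beta-galactosidase, had 31, 28 and 28 TPM with GFP, 54.4, 51.6 and 49.4 with Yap1 WT and 22.4, 23.2 and 17 with the shRNA.

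Among 10 metabolic enzymes, 5 were called higher with Yap1 WT and 10 lower with the shRNA (all tested genes: 32% and 39.1%). Sqor (NCBI gene 691966, chromosome 3, 114894944 to 114939375, plus strand, rn6), the mitochondrial enzyme that oxidises hydrogen sulfide, had 44.3, 42.5 and 42.2 TPM with GFP, 51.3, 53.3 and 51.2 with Yap1 WT and 20.4, 20.6 and 16.3 with the shRNA. Its Yap1 WT libraries lay little above GFP and its shRNA libraries far below, 2.25-fold lower in mean TPM. It stood just inside the limit of 1.2-fold through its step with Yap1 WT, which was not called. Ephx1, the microsomal epoxide hydrolase, had 56, 58.1 and 56.3 TPM with GFP, 71.6, 63.7 and 72.1 with Yap1 WT and 36, 35.1 and 36.8 with the shRNA and was not called with Yap1 WT. Hsd11b1, which reactivates glucocorticoids, had 25, 24.1 and 22.9 TPM with GFP, 37.4, 34.6 and 35.1 with Yap1 WT and 18.5, 19.7 and 12.5 with the shRNA. Lta4h, which makes leukotriene B4, had 54.9, 51.1 and 56.7 TPM with GFP, 72, 61.2 and 69.1 with Yap1 WT and 41.3, 40.7 and 43.2 with the shRNA. Its lowest Yap1 WT library was close to GFP, and Lta4h was not called with Yap1 WT. Cnp, a phosphodiesterase of cyclic nucleotides best known from myelin, had 22.6, 21.7 and 19.96 TPM with GFP, 34.9, 38.5 and 35.8 with Yap1 WT and 19, 17.7 and 14.4 with the shRNA. Aldh3a1 and Gckr were near the lower end of abundance and had the steepest falls of this group. Aldh3a1, an aldehyde dehydrogenase, had 2.12, 1.72 and 2.2 TPM with GFP, 4.68, 5.44 and 4.1 with Yap1 WT and 0.16, 0.16 and 0.61 with the shRNA. Gckr, the inhibitory partner of glucokinase, had 1.96, 1.4 and 1.87 TPM with GFP, 2.36, 2.37 and 2.84 with Yap1 WT and 0.12, 0.46 and 0.22 with the shRNA and was not called with Yap1 WT. Gadl1, an enzyme that decarboxylates acidic amino acids, had 2.46, 2.5 and 2.47 TPM with GFP, 3.59, 2.8 and 2.54 with Yap1 WT and 0.78, 1.4 and 0.88 with the shRNA, with 1 Yap1 WT library near the GFP level. Gadl1 was not called with Yap1 WT. Without Yap1 WT replicate 1, the fitted log2 step of Gadl1 with Yap1 WT was -0.069 in place of 0.10.

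Of 14 genes of signalling and the cytoskeleton, 8 were called higher with Yap1 WT and 13 lower with the shRNA (all tested genes: 32% and 39.1%). Asap3, a regulator of ARF GTPases and focal adhesions, had 5.53, 5.39 and 5.68 TPM with GFP, 8.21, 7.28 and 7.92 with Yap1 WT and 2.68, 2.88 and 2.73 with the shRNA. Dnm1, the GTPase that pinches off endocytic vesicles in neurons, had 3.73, 3.69 and 3.73 TPM with GFP, 5.5, 5.13 and 4.85 with Yap1 WT and 3.25, 2.89 and 3.1 with the shRNA, just inside the limit. Named after their values were seen, Prickle2, a planar cell polarity protein, had mean TPM of 3.84, 6.54 and 2.58 in the order GFP, Yap1 WT and shRNA, and Pak1, a kinase downstream of RAC1, had 8.98, 13.5 and 6.76.

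Of 13 genes of the nucleus and the cell cycle, 6 were called higher with Yap1 WT and 13 lower with the shRNA (all tested genes: 32% and 39.1%). Ccnd1 (cyclin D1, NCBI gene 58919, chromosome 1, 218090750 to 218100447, minus strand, rn6), which drives entry into the cell cycle, had 101, 92.3 and 97.9 TPM with GFP, 136, 130.4 and 123 with Yap1 WT and 75.3, 68.8 and 68.1 with the shRNA. Of 40 listed cell cycle genes only Ccnd1 was selected, where 108 of 12662 genes with at least 1 TPM were. The groups of Ccnd1 were narrow and well apart, and its fitted log2 steps were 0.26 (SE 0.05) and -0.67 (SE 0.05). Fam111a, a protease of the replication fork, was the most abundant of the 108 genes, with 197, 196 and 197 TPM with GFP, 295, 255 and 275 with Yap1 WT and 118, 107 and 121 with the shRNA. Xrcc1, the scaffold of single-strand break repair, had 24.5, 22.8 and 24.5 TPM with GFP, 29.7, 31.7 and 32.8 with Yap1 WT and 22.5, 21.5 and 15.2 with the shRNA. Its highest shRNA library was close to the lowest GFP library. Asf1b, a histone chaperone, had 14, 13.5 and 13.8 TPM with GFP, 16.8, 16.2 and 16.9 with Yap1 WT and 9.52, 9.91 and 10.8 with the shRNA. It was not called with Yap1 WT. The transcription factors Foxa2 and Twist1, named after their values were seen, had mean TPM of 2.88, 3.90 and 1.59 and of 19.8, 24.6 and 15.3. Neither was called with Yap1 WT.

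Both striated muscle genes were among the 63 called in both steps. The cardiomyocyte markers fell in both Yap1 groups, with 10 of 10 lower in each (all tested genes: 31.8% with Yap1 WT, 39.1% with the shRNA). Trdn (triadin, NCBI gene 59299, chromosome 1, 25403390 to 25839279, minus strand, rn6), which anchors the ryanodine receptor complex of the sarcoplasmic reticulum, had 10.5, 10.4 and 9.64 TPM with GFP, 19.6, 18.8 and 20.5 with Yap1 WT and 6.95, 7.47 and 6.29 with the shRNA. Its fitted log2 steps were equal within error, at 0.78 (SE 0.07) and -0.77 (SE 0.09). Xirp1, an actin-binding protein of the intercalated disc, had 63.1, 56.1 and 58 TPM with GFP, 83.6, 71.5 and 76.3 with Yap1 WT and 45.5, 41.1 and 41.4 with the shRNA, with the Yap1 WT and GFP libraries close together. None of the 29 contractile and calcium-handling genes in the table was selected. All 29 were lower with Yap1 WT and all 29 with the shRNA, beside the same shares of all tested genes (31.8% and 39.1%).

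None of the YAP targets on the list used here was among the 108, where 108 of 12662 genes with at least 1 TPM were selected. Of 22 YAP/TEAD targets on the list, 21 were in the table and tested: 9 were called higher and 8 lower with Yap1 WT, 10 higher and 7 lower with the shRNA, and 0 were higher with Yap1 WT and lower with the shRNA by edgeR, DESeq2 or limma. At an unadjusted p under 0.05 the edgeR count was 1, Ptpn14. Their fitted log2 steps had a median of 0.12 in both contrasts, where that of all tested genes was 0.00 and -0.01. Of 29 tested Hippo genes and YAP partners, 11 were higher and 9 lower with Yap1 WT, and 13 were higher and 10 lower with the shRNA. Again 0 had both calls by these tools, and Ptpn14 was the 1 at an unadjusted p under 0.05. Of all tested genes, 32% were called higher and 31.8% lower with Yap1 WT, and 39.2% higher and 39.1% lower with the shRNA. By edgeR, 1.09% of all tested genes had both calls. Lists this short can hold 0 at such a share, so nothing is read from the 0 in either list. Yap1's paralog Wwtr1 (TAZ), named beside it, stood at 27.2 ± 1.68 TPM with GFP, 41.0 ± 1.82 with Yap1 WT and 53.9 ± 2.74 with the shRNA (SD, n = 3 each), higher in both. Of the 108 genes, 96 were on none of the lists used here, and 12 were on at least 1, among them Ccnd1, Xrcc1, Tlr4, Col15a1, Fbln2, Lum, Vcan, Slc7a2, Igf2r, Pdgfra and Fcer1g.

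Steps up and down were not of one size within the genes. On counts, the fall with the shRNA exceeded the rise with Yap1 WT on the log2 scale in 56 of the 106, the rise exceeded the fall in 1, Col15a1, and 49 were not called. Among the 1190 tested genes with a fitted rise and a fitted fall, the members included, these shares were 15.2% and 3.87%. Over all tested genes the same contrast was called negative in 38.1% and positive in 38.3%, but most of those lay on one side of GFP in both groups and had no rise and fall to compare. The scale sets much of this. A TPM step of 1.2-fold corresponds to a low bar for the rise and a high bar for the fall on counts, and the smallest fitted log2 steps were 0.10 with Yap1 WT and -0.48 with the shRNA. Col15a1 lost its call without GFP replicate 1 or GFP replicate 2, and 2 genes were called without shRNA replicate 1. By limma on log2(TPM + 1), the fall was the larger in 11 and the rise in 7. No direction of the difference is therefore read from these counts.

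**Figure D4:**
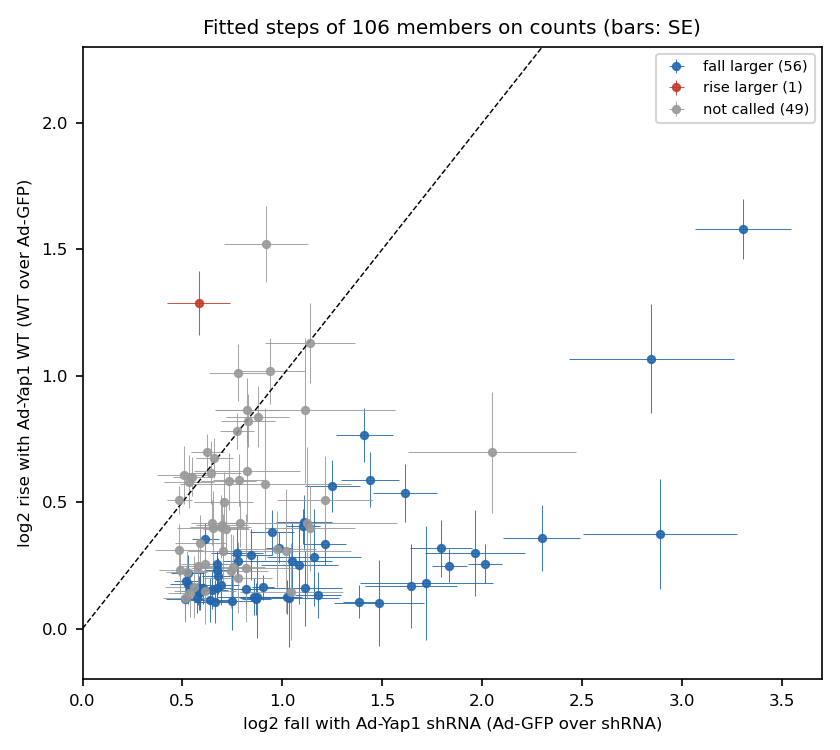
Fitted log2 rise with Ad-Yap1 WT (vertical) against the fitted log2 fall with Ad-Yap1 shRNA (horizontal) for the 106 genes in the count fit, with SE bars and the dashed line of equal steps. Most genes lie below the line (56 called, blue), Col15a1 alone is called above it (red), and 49 (grey) are not called.

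Within the Yap1 WT group the genes did not follow Yap1. Yap1 was highest in replicate 2, at 533 TPM, and lower in replicates 1 and 3, at 335 and 376. Of the 108 genes, 59 (54.6%) were lowest in replicate 2 and 22 (20.4%) were highest there, against 35.7% and 38.5% of the genes with at least 1 TPM. On CPM, 60 were lowest and 21 highest in replicate 2. Among named genes, those highest in replicate 2 on TPM included Lum, Aldh3a1, Lgmn, Cnp, Sqor and Pf4. Those lowest there included Fbln2, Pdgfra, Igf2r, Slc7a2 and Trdn. The cardiomyocyte and fibroblast marker sums were also lowest in replicate 2 among the Yap1 WT libraries, at 10046 and 3488 TPM, and highest in replicate 1, at 14870 and 4702. Their part in this order was not tested.

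**Figure D5:**
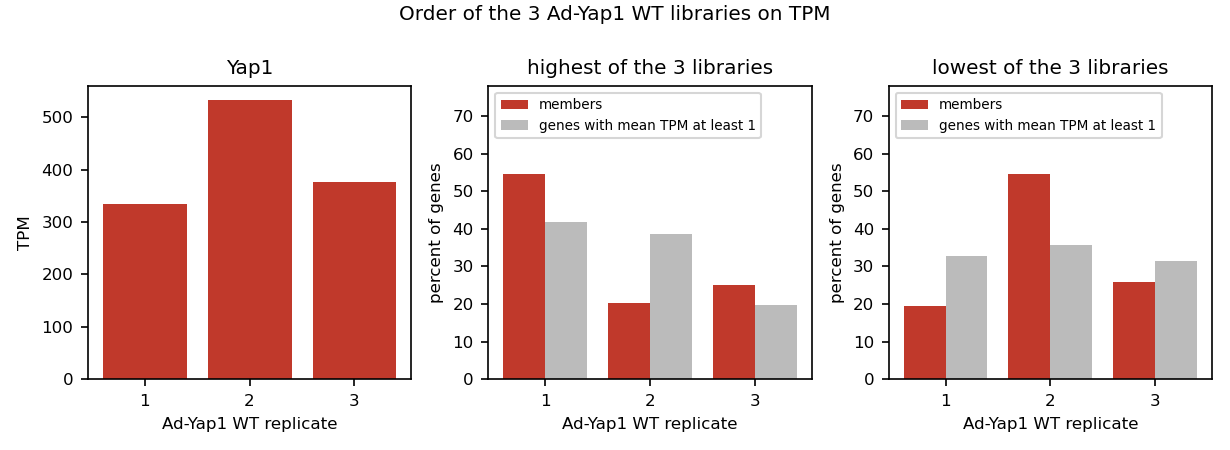
Left, Yap1 TPM in the 3 Ad-Yap1 WT libraries. Middle and right, the percentage of the 108 genes (red) and of all genes with a mean TPM of at least 1 (grey) whose highest or lowest Ad-Yap1 WT library is replicate 1, 2 or 3, with replicate 2 lowest for 54.6% of the selected genes.

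Likeness to Yap1 was measured as the Euclidean distance over the 9 libraries between centred and scaled log2(TPM + 1) values. The selection used the same TPM values and Yap1's own group order, so closeness to Yap1 is built in and these distances are a description. A2m was the nearest of the 108, at 0.55, as number 8 of 12661 genes ranked, followed by Cnp (0.65), Trdn (0.66), Gnptab (0.67) and Lum (0.68). The 7 genes closer than A2m were not selected.

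The limit of 1.2-fold cut through a continuous range. Just inside stood Gadl1 with a smaller step of 1.202-fold, Asf1b with 1.207, Dnm1 with 1.207 and Sqor with 1.207. Just outside stood Gja1 (connexin 43, the main gap junction protein of the ventricle), with 1.57-fold up and 1.199-fold down, and Mastl, Tmem63a and Pigx, each with a smaller step of 1.198-fold. Some of the 108 share sequence or position. P3h2 and the gene LOC102554639, annotated as P3h2-like, lie 2204 bases apart on chromosome 11 and stood at 30.7 and 26.9 TPM with GFP. Abcg3l4 and LOC103690063, annotated as Abcg3-like, lie 11781 bases apart on chromosome 14. Reads of such pairs may be divided uncertainly, so the members of a pair are not independent of each other.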

How the data were processed

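Messenger RNA, enriched on oligo(dT) beads per the labels' protocols, was measured in 9 libraries (3 groups of 3). The submitters' processing notes name HISAT2, Bowtie2, RSEM 1.3.1, DESeq2 1.4.5 and the build rn6, without the role of each. For each gene and library the authors deposited expected counts without normalization and TPM scaled within each library, together with log2 fold changes with q-values and p-values of their own comparisons. A second deposited table repeats 36 value columns and was not used.

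The 108 genes were selected on the deposited TPM. The genes and gene lists were chosen with earlier results of these data known. Roles were assigned from general knowledge after the values were seen. Expected counts were rounded and modelled by group alone over all 9 libraries in edgeR 4.0.16 under R 4.3.3, using TMM scaling and filterByExpr, which left 13708 genes. The quasi-likelihood F test was two-sided, and its p-values were adjusted (Benjamini-Hochberg) across every tested gene and called at 0.05. Each SE is the absolute log2 step divided by √F. Biological variation between libraries was 7.18% (coefficient of variation). The fit was tested on simulated data. Assigned reads per library (6103221 to 15368473) limit the precision of genes with few reads.

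Genes were named by a rule: members of a list, the 15 with the largest smaller step at 5 TPM or more, the 10 most abundant, the 5 with the largest difference of steps in each direction among those called, the 5 nearest to Yap1, and the 4 on each side of the limit. Some genes that this rule names are not reported here. Others fell outside the rule, and some of these are marked as named after their values were seen or given in summaries. Sfrp4, C7, Angpt1, Tsku, Ccn4, Epdr1, Slc39a14, Abcg1, Piezo2, Aif1 and Mpeg1 carry no mark. These were also outside the rule and named after their values were seen. Promoter letters came from RefSeq (GRCr8), not the files' build, and were searched on both strands. Alternatives were RLE and library size scaling, DESeq2 1.42.0, limma 3.58.1 on log2(TPM + 1), no or a stricter count filter, the replicate block, other limits of the selection, and each library left out.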

Additional observations from a re-analysis of the deposited data

How the results depend on the processing

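The selection of 108 genes changed most with its limits: a minimum of 5 TPM left 66, a step of 1.5-fold 21, a step of 2-fold 3, no minimum step gave 281, and CPM by library size alone gave 175. With each library left out it gave 115 to 145 genes, 100 to 106 of them shared with the 108. In the count fit, 48 to 65 genes were called higher with Yap1 WT, 102 to 106 lower with the shRNA and 47 to 64 in both steps as each library was left out. Over the other fits these counts were 47 to 91, 93 to 105 and 47 to 90. The rise exceeded the fall in 0 to 2 genes with each library left out, in 2 with library size alone and in 7 by limma on log2(TPM + 1), and the fall exceeded the rise in 46 to 61, and in 11 by limma. Of 1092 further values for 40 named genes, Yap1 included, 1035 kept direction and call, 34 lost a call, 22 gained one and 1 turned: without Yap1 WT replicate 1 the fitted log2 step of Gadl1 with Yap1 WT was -0.069 by edgeR (range over libraries left out -0.069 to 0.19). The cause of these changes was not tested. With few reads, as in Gng13 and Pf4, the steps are poorly resolved.

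The labels do not say whether a replicate number marks a shared isolation. Same-numbered libraries deviated together with r of -0.01 to 0.16; 4 of these 9 pairs were over 0.1, against no pair with different numbers (at most 0.06). Not every library correlated best with its own number. These correlations do not settle whether libraries of one number were paired. The libraries were treated as unpaired in the main fit, with the replicate block as an alternative. With the replicate block, 64 genes were called higher with Yap1 WT, 104 lower with the shRNA and 64 in both, the rise exceeded the fall in 1 and the fall the rise in 57.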

Other observations

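The scale also kept genes out. On TMM-scaled CPM, 45 genes with at least 1 TPM passed the same selection without being among the 108, and 38 of them missed the 1.2-fold step down on TPM. The genes named here were chosen after their values were seen. Ereg (epiregulin), a ligand of the EGF receptor, had 4.09, 3.45 and 3.94 CPM with GFP, 8.77, 6.41 and 8.55 with Yap1 WT and 3.196, 2.19 and 1.45 with the shRNA. Cdkn2a, which encodes inhibitors of the cell cycle, had 5.83, 5.89 and 6.32 CPM with GFP, 12.2, 11.9 and 12.3 with Yap1 WT and 4.47, 5.74 and 2.42 with the shRNA. Both had few reads. Id1, a target of BMP signalling, had 36.8, 40.3 and 40.6 CPM with GFP, 65.5, 60.5 and 67.3 with Yap1 WT and 25.6, 31.9 and 29.8 with the shRNA.

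A further 3 of the 45 were also picked by hand. Gja1 (connexin 43), the gap junction protein named above, had 157, 168 and 164 CPM with GFP, 238, 219 and 230 with Yap1 WT and 106, 129.6 and 117 with the shRNA, and on TPM its step down was 1.199-fold. Cxadr, the receptor that coxsackieviruses and adenoviruses bind and a junction protein of the intercalated disc, had 170, 174 and 166 CPM with GFP, 257, 248 and 248 with Yap1 WT and 127, 122 and 129 with the shRNA, with a TPM step down of 1.06-fold. Mmp2, a secreted gelatinase, had 745, 766 and 722 CPM with GFP, 1206, 1244 and 1218 with Yap1 WT and 559.7, 606 and 534 with the shRNA, with a TPM step down of 1.13-fold. The selection on CPM requires that the groups do not overlap.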
